A study of Homo sapiens with 4 samples.

Results

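The origin licensing and replisome genes are a set of 52 human genes that load the replicative helicase at origins, activate it and copy the DNA behind it, with 3 E2F transcription factors. They were chosen by symbol, with earlier results of these data known. All 52 had a row among the 78932 genes of the count table. All also passed the filter on low counts, as did 19511 genes in all. RNA came from RPMI 8226 multiple myeloma cells (the sample labels spell the line RPMI82266), transfected for 72 hours with an LNA ASO, a short chemically modified oligonucleotide that pairs with a chosen RNA. In 2 libraries the ASO was directed at CELF2, an RNA-binding protein, at 5 nM, and 2 libraries had a control LNA ASO, whose dose the labels do not give. Nothing in the labels ties the libraries of a group to different cultures. The p-values therefore weigh each difference against how much these libraries vary, and that variation may be technical.

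Eukaryotic origins are licensed in G1, when the origin recognition complex, CDC6 and CDT1 load rings of MCM2 to MCM7 onto DNA, and geminin keeps CDT1 from loading more rings after S phase has begun. The CDC7-DBF4 kinase and cyclin-dependent kinases then let CDC45 and the GINS complex join the ring and form the active helicase. Behind it work polymerase alpha with primase, polymerases delta and epsilon, the sliding clamp PCNA and its loader RFC, and the nuclease FEN1 and ligase LIG1, which finish the lagging strand. Many of these genes are transcribed at the G1/S boundary under E2F factors, and their mRNAs mark cycling cells.

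Total counts lay between 23599190 and 29161298 per library. CELF2, the targeted gene, stood at 128 and 127.9 CPM (read counts scaled to the TMM-adjusted library size) in the control libraries and at 56.6 and 48.8 CPM with the CELF2 ASO, 2.43-fold lower (edgeR adjusted p = 3.74e-05). The 9 plasma cell markers were all present, and their sum was 3900 to 4341 CPM in the control and 11400 to 11420 CPM with the CELF2 ASO, of which the lambda light chain gene IGLC2 held 1318 and 1654 CPM in the control and 8505 and 8701 CPM with the CELF2 ASO. Of the other 8 markers, 4 were lower in both CELF2 ASO libraries than in both control libraries: SDC1 was at 450 and 489 CPM against 248 and 154 CPM, TNFRSF17 at 93.3 and 91.1 against 58.6 and 33.4 CPM, PRDM1 at 213 and 209 against 122 and 105 CPM, and MZB1 at 452 and 513 against 405 and 299 CPM. IRF4, CD38 and SLAMF7 were higher in both, and XBP1 overlapped between the groups. The 3 T cell markers summed to at most 0.586 CPM and the 3 myeloid markers to at most 3.43 CPM, with LYZ at a count of 0 in each library. The 2 epithelial markers, EPCAM and KRT18, summed to 116 to 119 CPM in the control and 82.0 to 83.8 CPM with the CELF2 ASO, and the 2 fibroblast markers to at most 2.6 CPM. The part of these markers in the results was not tested. Over all genes tested the biological coefficient of variation was 13.7% within the CELF2 ASO pair and 3.58% within the control pair.

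Because many of these genes are known E2F targets, their promoters were searched for E2F-type letters. RefSeq promoter sequence (GRCh38.p14) was matched for 45 of the 52 members. The 8-base letters TTTCCCGC, TTTGGCGC, TTTGCCGC or TTTCGCGC stood on either strand within 250 bases upstream of the start in 15 of the 45 (33.3%), beside 4.4% of the 11419 matched genes tested and 2.79% of all 27305 promoters. TTTGGCGC and TTTCGCGC can overlap on opposite strands, as they do in MCM6. Of the 33 matched members called lower with the CELF2 ASO 33.3% held the letters, as did 33.3% of the 12 others. The median log2 fold change was -0.48 for members with the letters and -0.50 for members without. A match describes letters and is not evidence of binding.

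The 120 bases before the start are printed 5′ to 3′ for 6 members, with these letters in capitals, as examples of members with the letters that were and were not called, and of the member with the highest log2 fold change. MCM6, PCNA, E2F1 and E2F2 fell and hold the letters, and POLE holds them and did not pass the test. RFC1 rose and holds no such letters in the 250 bases searched. Of the other members called higher, which are not printed, ORC3 holds the letters and PRIM1 does not.
MCM6, chr2:135876444-135876563, minus strand: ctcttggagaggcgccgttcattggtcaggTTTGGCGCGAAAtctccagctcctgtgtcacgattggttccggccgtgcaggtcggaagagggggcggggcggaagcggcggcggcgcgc
PCNA, chr20:5126623-5126742, minus strand: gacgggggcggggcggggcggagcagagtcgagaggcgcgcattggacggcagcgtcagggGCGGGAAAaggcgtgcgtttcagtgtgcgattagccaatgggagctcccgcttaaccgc
E2F1, chr20:33686386-33686505, minus strand: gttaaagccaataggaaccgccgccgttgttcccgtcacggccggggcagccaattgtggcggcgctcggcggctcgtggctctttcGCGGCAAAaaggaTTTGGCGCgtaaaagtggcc
E2F2, chr1:23531234-23531353, minus strand: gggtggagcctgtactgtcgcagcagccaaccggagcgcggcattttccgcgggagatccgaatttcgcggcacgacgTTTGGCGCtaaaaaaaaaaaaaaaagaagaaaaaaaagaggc
POLE, chr12:132687343-132687462, minus strand: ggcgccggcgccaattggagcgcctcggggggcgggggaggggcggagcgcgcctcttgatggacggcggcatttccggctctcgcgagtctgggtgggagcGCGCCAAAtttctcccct
RFC1, chr4:39366363-39366482, minus strand: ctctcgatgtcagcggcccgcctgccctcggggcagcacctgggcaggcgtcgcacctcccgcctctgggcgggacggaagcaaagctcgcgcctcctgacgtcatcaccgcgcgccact

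Most members of the set had less mRNA with the CELF2 ASO. Of the 52 members, 37 fell (71.2%), where 28% of all genes tested and 35.4% of protein-coding genes tested were called lower. A further 3 rose (ORC3, PRIM1 and RFC1, 5.77%), where 27.6% of all genes tested were called higher, and 12 did not pass. Calls were frequent in this comparison, at 55.6% of all genes tested in either direction. The median log2 fold change of the members was -0.49, beside 0.04 over all genes tested and -0.05 over the 12754 protein-coding genes tested. A fall of at least 2-fold was called for 10 members (19.2%), where 11.2% of all genes tested had one. Which members were called higher changed with the library left out, as higher calls did over all genes. ORC3 and PRIM1 lost theirs when either control library was left out. In these bulk samples, fewer cells in S phase and less RNA of these genes per cell cannot be told apart.

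The calls of members with smaller differences changed with the libraries fitted and with the scaling. With 1 library left out, the spread comes from the pair of the other group alone, and the calls rest on it. Calls over all genes also became fewer without a control library and more frequent without a CELF2 ASO library. When either control library was left out, the log2 fold changes of GINS3, POLA1, RFC4, RFC5 and FEN1 were no smaller in size. Those of RPA1, PRIM1 and RFC3 were smaller only without control_LNA_ASO replicate 2, and that of ORC3 was smaller in both fits. When control_LNA_ASO replicate 1 was left out, the members' median log2 fold change was -0.54. GINS3, POLA1, RFC4, RFC5, FEN1, RPA1, ORC3 and PRIM1 then lost their calls. When control_LNA_ASO replicate 2 was left out, the median was -0.53, and the same 8 members and RFC3 lost theirs. Without CELF2_LNA_ASO replicate 1 the median was -0.49. MCM3, CDC7 and TIMELESS then passed as lower, and ORC2 and POLD3 as higher. Without CELF2_LNA_ASO replicate 2 the median was -0.52. MCM3, TIMELESS, WDHD1, POLA2, POLE, RPA2 and RPA3 then passed as lower, and ORC3 lost its call. With library totals alone, which moved the median of all genes from 0.04 to 0.16, 31 members were lower, where 23.3% of all genes tested were. In that setting GINS3, POLA1, RFC4, RFC5, FEN1 and RPA1 lost their calls, and ORC2 and POLD3 passed as higher.

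Both CELF2 ASO libraries lay below both control libraries for 45 members, where 38.4% of all genes tested did so, and above them for 5, where 41.2% did. CDC6 and CHAF1B were the members whose groups overlapped. The members together took 0.930% and 0.938% of all counts in the control libraries and 0.610% and 0.589% with the CELF2 ASO. Between the CELF2 ASO libraries, the ratio of replicate 2 to replicate 1 ran from 0.855 to 1.24 over the members. Values below 0 were measured for 46 members (88.5%) and for 52.6% of the protein-coding genes tested.

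**Figure D1:**
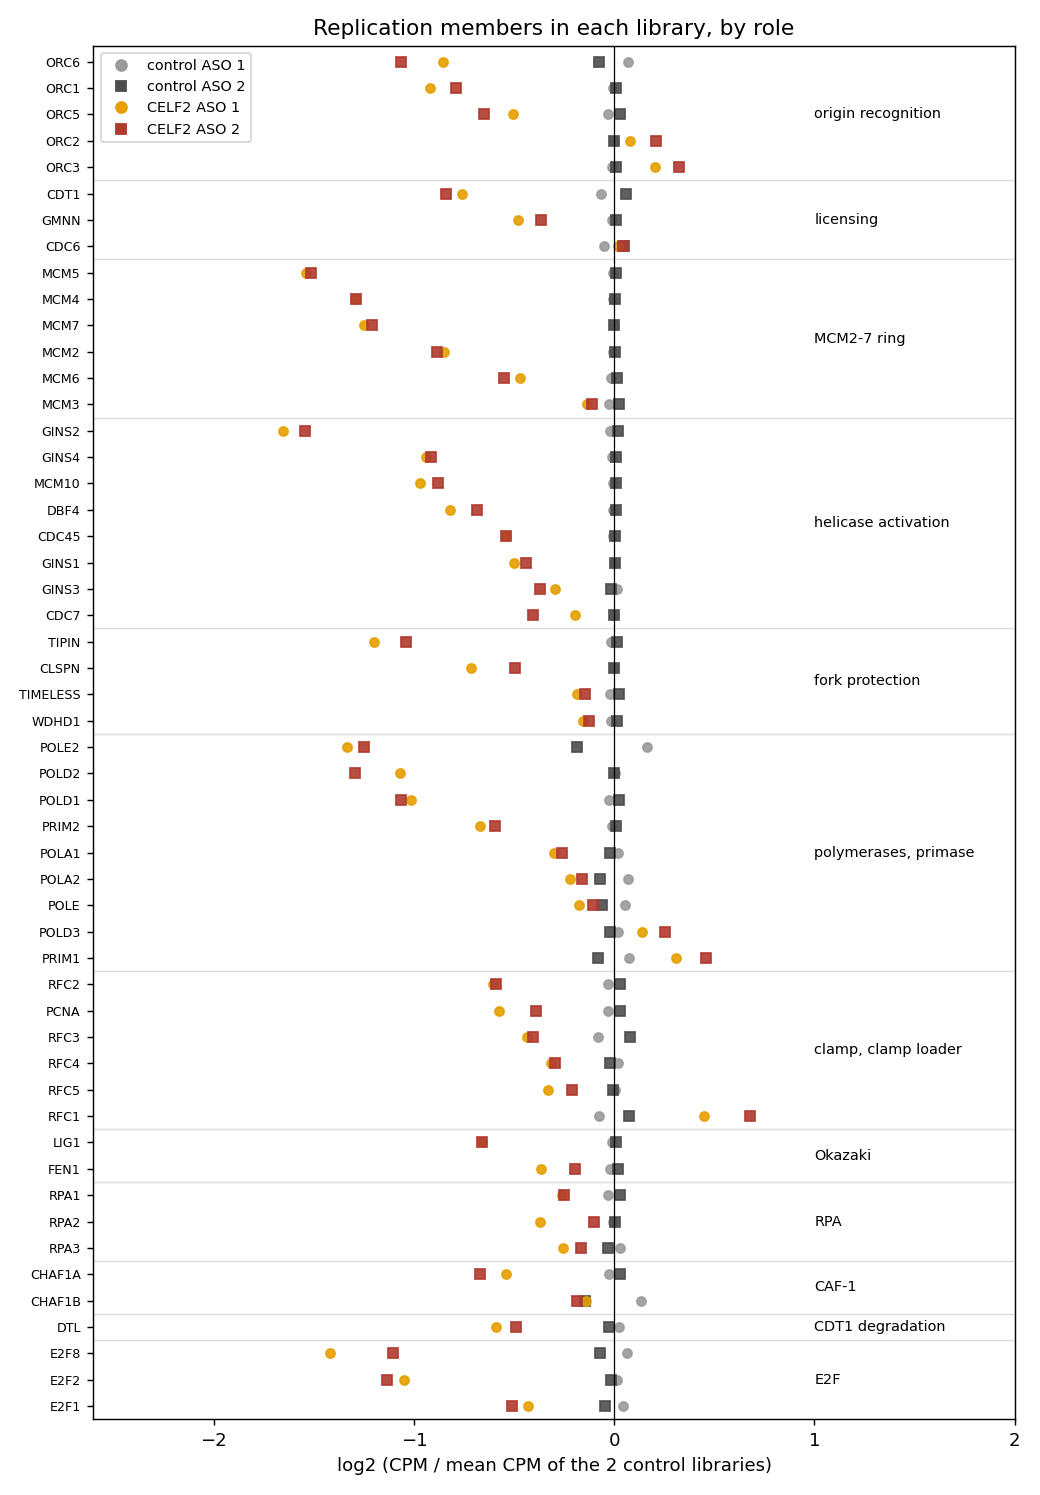
Each row is a member gene, grouped by role, and each point is 1 library at log2 of its CPM over the mean CPM of the control libraries, with control ASO and CELF2 ASO libraries in different colours. MCM5 and GINS2 lie farthest to the left and RFC1 farthest to the right.

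**Figure D2:**
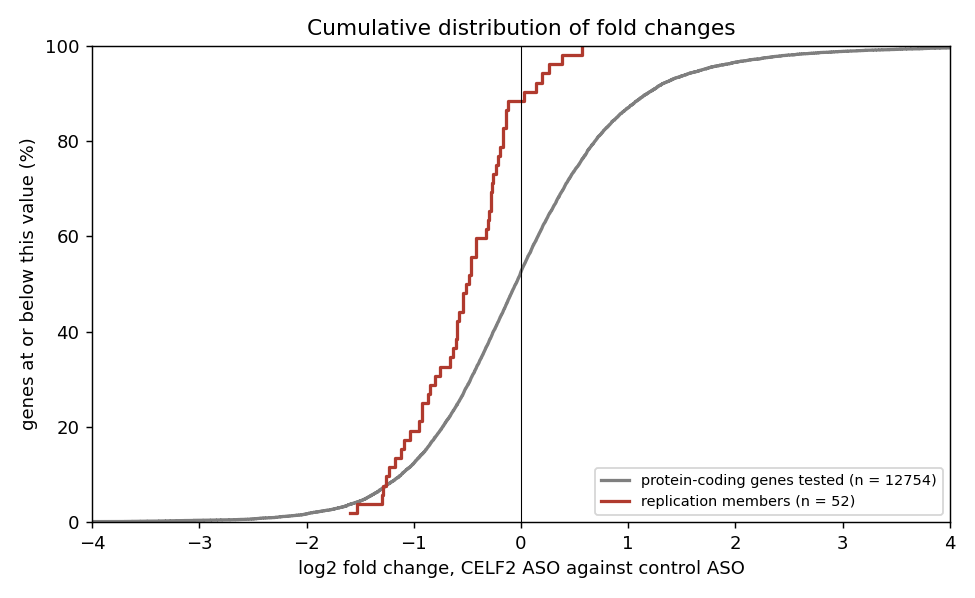
The curves give the percent of genes (y axis) at or below each log2 fold change of CELF2 ASO against control (x axis), for the 52 members and for protein-coding genes tested. At 0 the members have reached 88.5% and protein-coding genes 52.6%.

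The origin recognition complex, which marks origins, divided by subunit. ORC6 (ENSG00000091651, GRCh38 chromosome 16, 46689643 to 46698394) stood at 32.4 and 29.3 CPM in the control libraries and 17.1 and 14.8 CPM with the CELF2 ASO. It fell 1.94-fold (log2 fold change -0.95, SE 0.11, edgeR adjusted p = 0.000372). ORC1, the subunit whose protein rises and falls through the cell cycle, went from 188 and 190.1 to 99.8 and 109.6 CPM and fell 1.81-fold (edgeR adjusted p = 9.94e-05). ORC5 went from 30.2 and 31.5 to 21.8 and 19.7 CPM and fell 1.49-fold (edgeR adjusted p = 0.00213). For these genes every CELF2 ASO value was below every control value.

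ORC2 and ORC3 lay on the other side, with both CELF2 ASO values above both control values. ORC3 went from 23.5 and 23.9 to 27.3 and 29.6 CPM, a rise of 1.20-fold close to the threshold (edgeR adjusted p = 0.048). Its call was lost under 9 of the 12 alternatives, and over the alternatives its adjusted p ran from 0.00056 to 0.356. ORC2 was at 26.4 and 26.4 CPM against 27.9 and 30.5 CPM and did not pass (log2 fold change 0.14, SE 0.094, edgeR adjusted p = 0.225). ORC4, the subunit of the complex that is not a member, did not pass (log2 fold change -0.21, SE 0.15, edgeR adjusted p = 0.272).

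Of the loading factors CDT1 fell, while CDC6 did not pass. CDT1 (ENSG00000167513, GRCh38 chromosome 16, 88803213 to 88809258) stood at 259.7 and 283 CPM in the control and 160.5 and 152 CPM with the CELF2 ASO (log2 fold change -0.80, SE 0.078, edgeR adjusted p = 0.000143). CDC6 (ENSG00000094804, GRCh38 chromosome 17, 40287633 to 40304657), the ATPase that works with ORC, stood at 184 and 198 CPM and 194 and 197 CPM, so its CELF2 ASO values lay within the control range (log2 fold change 0.031, SE 0.073, edgeR adjusted p = 0.737). The sign of the CDC6 value turned with no filter, without control_LNA_ASO replicate 1 and with GC and length offsets. Geminin (GMNN), the inhibitor of CDT1, went from 67.9 and 68.8 to 49.1 and 53 CPM and fell 1.34-fold (edgeR adjusted p = 0.00333).

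The ratio of CDT1 to GMNN reads was 3.82 and 4.12 in the control libraries and 3.27 and 2.86 with the CELF2 ASO, and that of CDC6 to CDT1 reads was 0.710 and 0.699 and 1.21 and 1.30. CDC6 thus had fewer reads than CDT1 in the control and more with the CELF2 ASO. DTL, the ubiquitin ligase receptor that marks CDT1 for destruction in S phase, went from 285 and 276 to 187 and 200.1 CPM and fell 1.45-fold (edgeR adjusted p = 0.000692).

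The MCM2-7 ring holds its 6 subunits in equal number, yet their mRNAs fell unequally. MCM5 (ENSG00000100297, GRCh38 chromosome 22, 35400063 to 35425430) stood at 1065 and 1076 CPM in the control and 368 and 375 CPM with the CELF2 ASO and fell 2.88-fold (log2 fold change -1.53, SE 0.069, edgeR adjusted p = 9.07e-06). MCM4 went from 441 and 444 to 181 and 181 CPM and fell 2.45-fold, and MCM7 went from 1513 and 1516 to 637 and 654 CPM and fell 2.35-fold. Smaller falls were those of MCM2, 1.82-fold from 565 and 568 to 314 and 307 CPM, and MCM6, 1.42-fold from 358 and 365 to 261 and 247 CPM. MCM3 (ENSG00000112118, GRCh38 chromosome 6, 52264009 to 52284881) was at 486 and 504 CPM against 450.4 and 459 CPM. Both CELF2 ASO values of MCM3 were below the control values, but the difference did not pass (log2 fold change -0.12, SE 0.069, edgeR adjusted p = 0.167).

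MCM3 passed when CELF2_LNA_ASO replicate 1 was left out (adjusted p = 0.0445) and when replicate 2 was (adjusted p = 0.00197), in fits whose spread comes from the control pair alone. Scaled to exon length, MCM7 was the most abundant ring subunit in each library, at 345 and 346 RPKM (CPM divided by exon length in kilobases) in the control and 145 and 149 RPKM with the CELF2 ASO. MCM3 made up 15% and 15.4% of the summed length-scaled level of the ring genes in the control libraries and 26.1% and 26.5% with the CELF2 ASO. MCM5 went the other way, from 16.3% and 16.3% to 10.6% and 10.8%. The ratio of MCM3 to MCM5 reads was 0.456 and 0.468 in the control and 1.22 and 1.23 with the CELF2 ASO. On the opposite strand MCM7 shares 392 exonic bases with AP4M1 and MCM2 shares 1113 with an antisense gene, whose reads cannot be told apart without a stated strand setting.

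**Figure D3:**
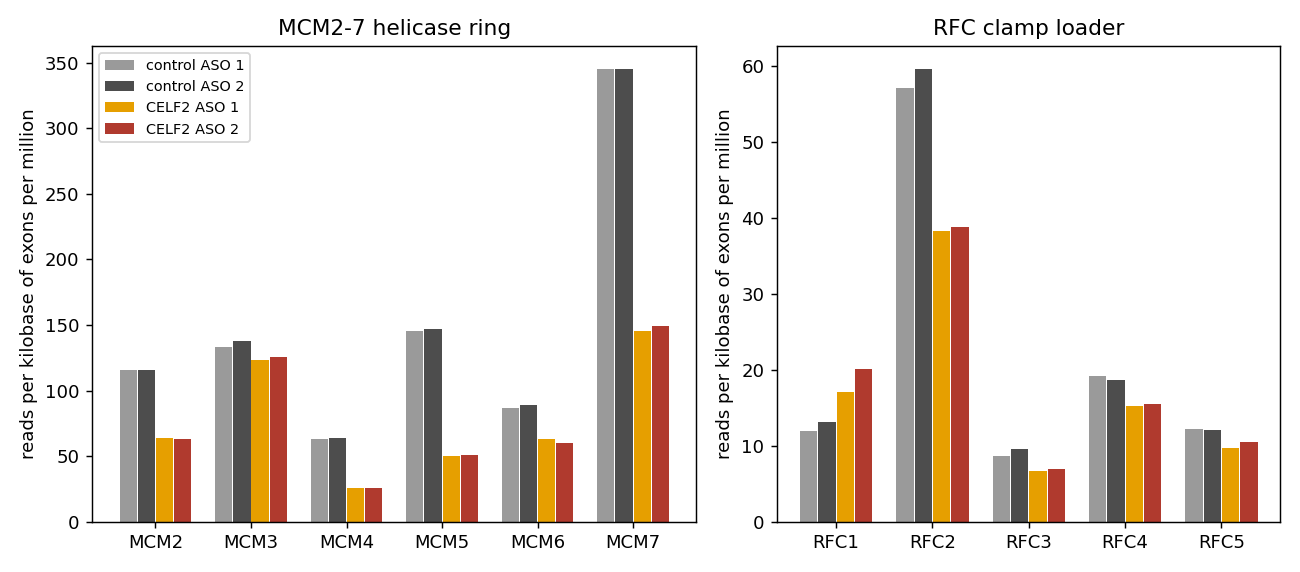
Length-scaled levels in RPKM (y axis, starting at 0) for the genes of the MCM2-7 ring (left) and the RFC clamp loader (right), 1 bar per library, with control ASO in grey and CELF2 ASO in orange and red. MCM7 goes from 345 and 346 to 145 and 149, while RFC1 goes from 11.9 and 13.2 to 17.1 and 20.1.

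Of the genes that turn the loaded ring into an active helicase, 7 of 8 fell (87.5%), where 35.4% of protein-coding genes tested did. The median log2 fold change of the 8 was -0.65. GINS2 (ENSG00000131153, GRCh38 chromosome 16, 85676198 to 85690073), a GINS subunit, stood at 61.3 and 63 CPM in the control and 19.7 and 21.3 CPM with the CELF2 ASO and fell 3.03-fold (log2 fold change -1.60, SE 0.088, edgeR adjusted p = 1.48e-05). The other GINS genes fell less: GINS4 by 1.90-fold, GINS1 by 1.38-fold and GINS3 by 1.26-fold. On the opposite strand GINS4 shares 1159 exonic bases with an antisense gene and GINS3 shares 558 with another. Their reads cannot be told apart without a stated strand setting. GINS2 went from 37.6% and 38.3% of the summed length-scaled level of the GINS genes to 21.4% and 22.5%. MCM10, which helps to start the helicase, went from 146 and 147 to 74.9 and 79.6 CPM and fell 1.90-fold (edgeR adjusted p = 5.75e-05).

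CDC45, a helicase subunit, went from 52.7 and 53.1 to 36.4 and 36.4 CPM and fell 1.45-fold (edgeR adjusted p = 0.000946). DBF4, the regulatory subunit of the firing kinase, went from 64.4 and 65.1 to 36.6 and 40.3 CPM and fell 1.68-fold (edgeR adjusted p = 0.000271). CDC7, its catalytic subunit, had the lowest CPM of the members in the control libraries, at 8.04 and 8.05 against 7.03 and 6.07 CPM. The CDC7 groups did not overlap, and the difference did not pass (log2 fold change -0.29, SE 0.14, edgeR adjusted p = 0.116). DBF4B, the alternative regulatory subunit and not a member, did not pass (log2 fold change 0.10, SE 0.17, edgeR adjusted p = 0.644).

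Among the fork protection genes 2 of 4 fell (50%), where 35.4% of protein-coding genes tested did. TIPIN (ENSG00000075131, GRCh38 chromosome 15, 66336206 to 66386746) stood at 53.8 and 54.9 CPM in the control and 23.6 and 26.4 CPM with the CELF2 ASO and fell 2.17-fold (log2 fold change -1.12, SE 0.092, edgeR adjusted p = 6.73e-05), though its level is uncertain, since it shares 579 exonic bases with a processed pseudogene on its strand. Its partner TIMELESS was at 135 and 139 CPM against 120.3 and 124 CPM, with no overlap of the groups, and did not pass (log2 fold change -0.17, SE 0.07, edgeR adjusted p = 0.0795). CLSPN, the checkpoint mediator claspin, went from 121 and 121 to 73.9 and 86 CPM and fell 1.52-fold (edgeR adjusted p = 0.00111). WDHD1, which links the helicase to polymerase alpha, was at 56.5 and 57.6 CPM against 51.2 and 52.3 CPM and did not pass (log2 fold change -0.14, SE 0.076, edgeR adjusted p = 0.154), but it passed with GC and length offsets (log2 fold change -0.33, adjusted p = 0.00515).

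Of the 9 polymerase genes 5 fell (55.6%) and 1 rose (11.1%), where 35.4% and 28% of protein-coding genes tested did. For polymerase delta, the catalytic subunit POLD1 went from 220.2 and 228 to 111 and 107 CPM and fell 2.05-fold (log2 fold change -1.04, SE 0.071, edgeR adjusted p = 3.22e-05). POLD2 went from 803 and 800.3 to 382 and 326 CPM and fell 2.26-fold (log2 fold change -1.18, SE 0.091, edgeR adjusted p = 5.00e-05). POLD3, the subunit with a PCNA-binding tail, was at 48 and 46.7 CPM against 52.1 and 56.5 CPM. Its CELF2 ASO values lay above the control values, and the difference did not pass (log2 fold change 0.20, SE 0.083, edgeR adjusted p = 0.0771). POLD1 shares 426 exonic bases with another annotated gene on its strand.

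For polymerase epsilon, POLE2 went from 17.9 and 14.1 to 6.35 and 6.74 CPM and fell 2.45-fold (log2 fold change -1.30, SE 0.15, edgeR adjusted p = 0.000347). POLE, the catalytic subunit, was at 99 and 91.5 CPM against 84.3 and 88.7 CPM and did not pass (log2 fold change -0.14, SE 0.079, edgeR adjusted p = 0.167). The accessory subunits POLE4 and POLE3, which are not members, fell 2.44-fold (edgeR adjusted p = 0.000126) and 1.21-fold (edgeR adjusted p = 0.0225).

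The primase subunits went in opposite directions. PRIM1 (ENSG00000198056, GRCh38 chromosome 12, 56731596 to 56752373), the catalytic subunit, was at 27.1 and 24.4 CPM in the control and 32 and 35.4 CPM with the CELF2 ASO and rose 1.31-fold (log2 fold change 0.38, SE 0.10, edgeR adjusted p = 0.0152). That rise did not hold when control_LNA_ASO replicate 1 was left out (adjusted p = 0.078) or when replicate 2 was (adjusted p = 0.237), and PRIM1 shares 362 exonic bases with another coding gene on its strand. PRIM2, the large subunit, went from 25.3 and 25.6 to 16 and 16.9 CPM and fell 1.55-fold (edgeR adjusted p = 0.00125). The ratio of PRIM1 to PRIM2 reads was 1.07 and 0.952 in the control and 2.00 and 2.10 with the CELF2 ASO.

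POLA1, the catalytic subunit of polymerase alpha, went from 112 and 109 to 89.9 and 92.4 CPM and fell 1.22-fold (edgeR adjusted p = 0.0121). Its partner POLA2 was at 35.4 and 32.2 CPM against 28.9 and 30.2 CPM and did not pass (log2 fold change -0.19, SE 0.093, edgeR adjusted p = 0.116). POLA2 is uncertain, since it shares 2012 exonic bases with another annotated gene on its strand.

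The clamp PCNA (ENSG00000132646, GRCh38 chromosome 20, 5114953 to 5126626) stood at 189 and 196 CPM in the control and 129 and 147 CPM with the CELF2 ASO and fell 1.40-fold (log2 fold change -0.48, SE 0.085, edgeR adjusted p = 0.00234). Its loader divided by subunit. The small subunits all fell, RFC2 by 1.51-fold, RFC3 by 1.34-fold, RFC4 by 1.24-fold and RFC5 by 1.21-fold. The RFC5 fall was close to the threshold (edgeR adjusted p = 0.0325) and was not called with the 1 CPM filter, DESeq2 or the replicate block. With library totals alone neither RFC4 nor RFC5 was called. RFC2, the most abundant per length, went from 126 and 132 to 84.8 and 85.9 CPM (edgeR adjusted p = 0.000371).

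RFC1 (ENSG00000035928, GRCh38 chromosome 4, 39287456 to 39366375), the large subunit of the loader, stood at 80.0 and 88.6 CPM in the control and 115 and 135 CPM with the CELF2 ASO and rose 1.48-fold (log2 fold change 0.57, SE 0.10, edgeR adjusted p = 0.0023). Of the 3 members called higher it was the 1 that kept its call under all 12 alternatives. RFC1 made up 10.9% and 11.6% of the summed length-scaled level of the loader genes in the control and 19.7% and 21.9% with the CELF2 ASO. The ratio of RFC1 to RFC2 reads was 0.633 and 0.671 and then 1.36 and 1.57.

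LIG1, the ligase that seals Okazaki fragments, went from 104 and 105 to 66.4 and 66.4 CPM and fell 1.58-fold (edgeR adjusted p = 0.000226). FEN1, the flap nuclease, went from 361 and 371 to 284 and 320.1 CPM and fell 1.21-fold (edgeR adjusted p = 0.0225). The FEN1 call did not hold with GC and length offsets either (adjusted p = 0.34). RPA coats single-stranded DNA, and its large subunit RPA1 went from 146 and 152 to 124 and 125 CPM and fell 1.20-fold (edgeR adjusted p = 0.0166). RPA2, at 49.7 and 50.1 against 38.6 and 46.6 CPM, and RPA3, at 26.3 and 25.2 against 21.6 and 22.9 CPM, did not pass, though their groups did not overlap.

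CAF-1 places nucleosomes behind the fork. Its large subunit CHAF1A went from 229 and 238 to 160.3 and 147 CPM and fell 1.52-fold (edgeR adjusted p = 0.000508). CHAF1B was at 14.9 and 12.2 CPM against 12.3 and 11.9 CPM, the groups overlapped, and it did not pass (log2 fold change -0.16, SE 0.13, edgeR adjusted p = 0.326). RBBP4, the CAF-1 subunit that is shared with other chromatin complexes and is not a member, rose 1.38-fold (edgeR adjusted p = 0.00113).

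All 3 E2F genes of the set fell, where 35.4% of protein-coding genes tested did. E2F8 (ENSG00000129173, GRCh38 chromosome 11, 19224063 to 19241620), a repressor, stood at 49.4 and 45 CPM in the control and 17.7 and 21.9 CPM with the CELF2 ASO and fell 2.39-fold (log2 fold change -1.26, SE 0.12, edgeR adjusted p = 0.00014). E2F2, an activator, went from 316 and 308 to 151 and 142 CPM and fell 2.13-fold (edgeR adjusted p = 2.78e-05). E2F1 (ENSG00000101412, GRCh38 chromosome 20, 33675683 to 33686404), also an activator, went from 125 and 117 to 89.7 and 84.9 CPM and fell 1.38-fold (edgeR adjusted p = 0.00166), but with GC and length offsets its log2 fold change was 0.017 (adjusted p = 0.863). Among the 10 other E2F, DP and pocket protein genes 4 fell and 2 rose, the latter being the pocket protein genes RB1 (1.39-fold, edgeR adjusted p = 0.0024) and RBL2 (1.17-fold, edgeR adjusted p = 0.0418). These shares, 40% lower and 20% higher, are near the 35.4% and 28% of protein-coding genes.

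GC content moved with the fold changes. The longest transcripts of the members held 38.1% to 65.0% G and C, and across the 52 members the log2 fold change had a Pearson correlation of -0.38 and a Spearman correlation of -0.36 with that share. Over 12749 protein-coding genes the values were -0.19 and -0.23. Genes share these libraries and are not independent replicates. Of the 11 members with at least 55% GC, 10 fell and the median of their log2 fold changes was -0.87, where 48.4% of protein-coding genes in that range fell, with a median of -0.38. Of the 22 members under 45% GC, 15 fell, with a median of -0.42, where 24.9% of such protein-coding genes fell, with a median of 0.13. Between them 12 of 19 members fell, with a median of -0.31, where 34.9% fell, with a median of -0.032.

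With offsets for GC content and length, chosen after seeing the data, 36 members were lower and 2 higher, and the median was -0.40. Of the 17699 genes tested with these offsets, 27.9% were lower and 30.3% higher, and the median was 0.066. CDT1 then had a log2 fold change of -0.26 (adjusted p = 0.02), POLD1 -0.51 (adjusted p = 0.00105) and MCM7 -0.96 (adjusted p = 3.94e-05). MCM5 was at -1.35 and GINS2 at -1.53.

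**Figure D4:**
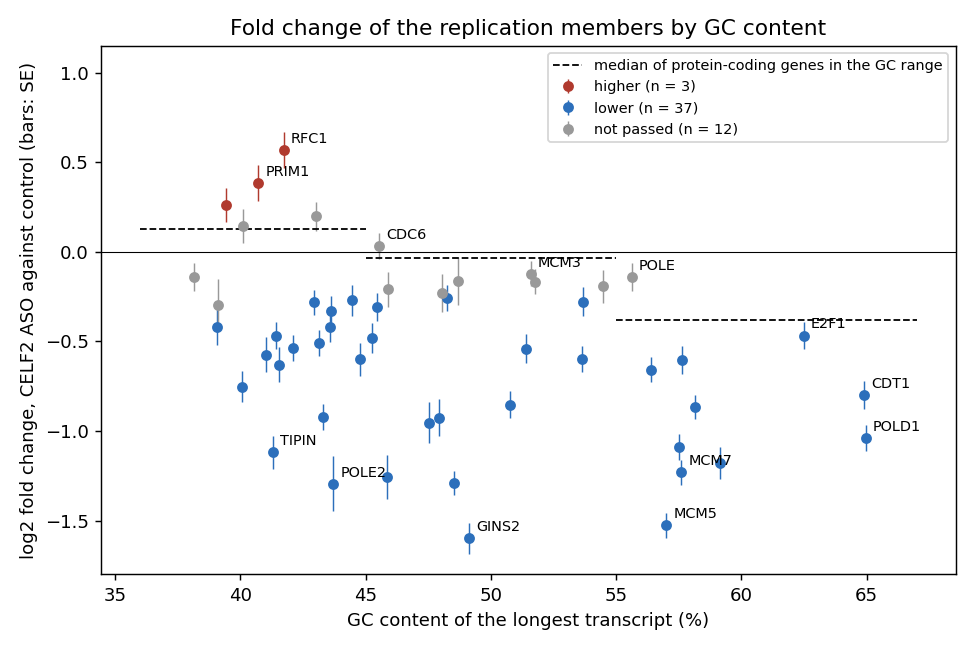
Each point is a member, placed by the GC content of its longest transcript (x axis, percent) and its log2 fold change (y axis). The medians of protein-coding genes in the 3 GC ranges are 0.13, -0.032 and -0.38 from left to right, and the members' medians are lower in each range.

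A list of 60 other replication genes gave 29 that fell (49.2%) and 7 that rose (11.9%) of 59 tested, with a median log2 fold change of -0.30, where 28% of all genes tested and 35.4% of protein-coding genes were called lower and 27.6% and 28% higher. The difference between this list and the members was not tested. POLD4, a polymerase delta subunit with 8 or 9 counts in each library, could not be tested. The 5 falls with the smallest adjusted p were those of LRWD1, an ORC-associated protein (2.77-fold), UHRF1, which guides maintenance of DNA methylation (2.63-fold), SUPT16H, a subunit of the histone chaperone FACT (1.88-fold), TONSL, a reader of new histones (2.50-fold), and TICRR, a firing factor (1.81-fold). Their edgeR adjusted p ran from 2.50e-05 to 7.12e-05.

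RAD17, which loads the checkpoint clamp, rose 2.38-fold (edgeR adjusted p = 4.04e-05), the rise with the smallest adjusted p. CUL4B, a scaffold of the ligase that DTL serves, rose 1.77-fold (edgeR adjusted p = 0.000596), while DDB1, the adaptor of that ligase, fell 1.81-fold (edgeR adjusted p = 7.59e-05). UBXN7, a cofactor in helicase removal, rose 1.19-fold (edgeR adjusted p = 0.0344). By class, 6 of 8 nucleosome assembly and maintenance genes fell (75%), as did 5 of 7 fork, Okazaki and topology enzymes (71.4%), where 35.4% of protein-coding genes did. The 3 of 8 checkpoint genes that fell (37.5%) are near that share. So are the other subunits of the same complexes (40%) and the genes for ubiquitination of CDT1 and the helicase (33.3%). Of the other licensing, firing and MCM factors 45.5% fell, and of the alternative clamp loader and unloading genes 50%. How many genes of the whole list were called higher changed with the library left out, as it did over all genes tested.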

How the data were processed

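The authors deposited 1 table of raw counts, whole numbers of reads per gene in 4 libraries. The tools named in the submitters' processing notes are bcl2fastq, Salmon 1.10.0, STAR 2.7.11b, featureCounts 2.0.8 and Subread, and the build is GRCh38. An annotation release or a strand setting is not given in the sources used here. The labels conflict on the library type: the design text speaks of poly(A) selection and the extract protocol of depletion of ribosomal RNA. The 97 rows that name no gene held 1 to 3 counts per library and were left out. A name table gave symbols for 61481 of 78932 gene IDs. GENCODE 29 gave positions, exon lengths (all annotated exons of a gene merged) and GC content. Ranks and shares of length-scaled levels between genes depend on these annotated lengths.

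Genes were filtered with filterByExpr (minimum count 10, minimum total 15), scaled by TMM and tested with the two-sided quasi-likelihood test of edgeR 4.0.16 in R 4.3.3, with robust estimation. P-values were adjusted by Benjamini-Hochberg over 19511 genes and called at 0.05. SE is the absolute log2 fold change over the square root of F. Libraries of a pair differed beyond sampling noise, with a chi-square per degree of freedom of 3.38 (control) and 18.5 (CELF2 ASO). Alternatives were RLE scaling, library totals alone, no filter, a filter at 1 CPM in 2 libraries, DESeq2 1.42.0, limma-voom (limma 3.58.1), a replicate block and each library left out. Offsets for GC content and length (splines, 5 degrees of freedom) were added after seeing the data. The scripts were tested on simulated data.

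The members and gene lists were chosen with earlier results of these data known. Named genes were CELF2, the members by role, other subunits of their complexes, and the 5 smallest adjusted p-values in each direction among the other replication genes. RBL2 and DDB1 were chosen after their values were seen.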

Additional observations from a re-analysis of the deposited data

How the results depend on the processing

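Of the 37 members called lower, 29 kept the call under all 12 alternatives, as did 1 of the 3 called higher. With all 4 libraries fitted, members called lower numbered 31 to 37, where 11.3% to 31.6% of all genes tested were. The median log2 fold change of the members was -0.52 with RLE scaling, -0.38 with library totals alone, -0.55 with no filter, -0.44 with the 1 CPM filter, -0.52 with DESeq2, -0.40 with GC and length offsets, and -0.54 to -0.49 with 1 library left out. Library totals alone moved the median of all genes from 0.04 to 0.16 and gave 41.7% of all calls as lower, where the main scaling gave 50.3%. Members called higher numbered 5 with library totals alone, where 32.5% of all genes tested were, and changed with the library left out. Other replication genes called higher numbered 4 with RLE scaling, no filter, DESeq2 or the replicate block. The shares of all genes tested called higher in these settings were 26.7%, 9.81%, 20.5% and 27.7%. CDC6 had a log2 fold change of -0.024 with no filter and -0.038 with GC and length offsets, and from -0.048 to 0.057 with 1 library left out. E2F1 had 0.017 with GC and length offsets. Of the members that did not pass in the main test, ORC2 and POLD3 passed as higher with library totals alone. POLD3 also did so with the 1 CPM filter, and WDHD1 passed as lower with GC and length offsets. A fit without 1 library assumes that the lone library varies like the other group, and the cause of the shifts was not tested. With the replicate block 36 members were lower and 2 higher, as RFC5 and ORC3 lost their calls. Deviations of same-numbered libraries correlated at 0.034 over genes, and the labels do not say that a number marks a shared culture or day.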

Other observations

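Scaled to exon length, POLD2 stood second to MCM7 among the members in the control libraries, at 217 and 217 RPKM, and the lowest levels were those of CDC7 at 2.26 and 2.26 RPKM and CHAF1B at 2.90 and 2.39 RPKM. The ratio of POLD3 to POLD2 reads went from 0.0598 and 0.0583 in the control to 0.136 and 0.173 with the CELF2 ASO. The ratio of E2F1 to E2F8 reads went from 2.52 and 2.60 to 5.08 and 3.87. The letters CCAAT stood on either strand within 250 bases upstream of the start in 26 of 45 matched members (57.8%). They stood in 35.1% of matched genes tested and in 33% of all promoters. TTTGAA or TTCGAA, the letters of the CHR element known from genes of G2 and mitosis, stood in 1 of the 45 (2.22%), MCM6. Of matched genes tested 9.98% held these letters, as did 14.6% of all promoters.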
